A study of Mus musculus with 6 samples.

Results

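The subunits of the mitochondrial respiratory chain and of ATP synthase that are encoded in the nucleus were followed through 6 RNA sequencing libraries of mouse CD4 T cells. Members were the gene entries whose symbol starts with Nduf (without the Ndufaf assembly factors), Uqcr, Cox4 to Cox8 or Atp5, together with Sdha, Sdhb, Sdhc, Sdhd, Cyc1 and Cycs, and 88 of the 23415 entries with a status of OK in all tables met this rule. By symbol, 38 fell to complex I, 4 to complex II, 9 to complex III, 19 to complex IV and 17 to ATP synthase, and Cycs encodes cytochrome c itself. The rule also caught 3 genes that are not subunits, namely Cox4nb (Emc8 in RefSeq), Atp5s (Dmac2l) and Atp5sl (Dmac2), and 8 isoforms known from other tissues or from low oxygen (Cox4i2, Cox6a2, Cox6b2, Cox7a1, Cox7b2, Cox8b, Cox8c and Ndufa4l2).

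The libraries came from CD4 T cells of C57/Bl6j mice aged 7 weeks that lacked NLRP3 (NLRP3KO), the sensor of an inflammasome, or were wild type (WT). Each genotype gave 1 library of naive cells, 1 of cells kept under T helper 2 (Th2) conditions for 3 days and 1 at 6 days. Th2 conditions were IL-4 at 10 ng/ml and blockade of interferon gamma by antibody, with stimulation by plate-bound CD3 and CD28 antibodies. Naive libraries were made from purified mRNA and Th2 libraries from RNA depleted of ribosomal RNA, so culture and RNA selection cannot be told apart. No group was replicated, and every interval given here covers counting error only and compares libraries, not conditions.

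Complexes I to IV pass electrons to oxygen and, complex II apart, pump protons across the inner mitochondrial membrane, and ATP synthase uses the return flow of protons to make ATP. The subunits of complex II are all encoded in the nucleus, whereas the other 4 assemblies also need subunits encoded in mitochondrial DNA. No entry lay on the mitochondrial genome, so only nuclear subunits were measured. T cells enlarge their respiratory capacity when they are activated, alongside glycolysis. Levels are given as deposited FPKM (fragment numbers set relative to the length of the transcript and to the depth of the library). Differences between libraries are given as log2 of scaled FPKM plus 1. Each library was divided by a factor, the median over 1059 genes of its FPKM relative to their geometric mean, taken over the genes that reached an FPKM of 1 in every library. The divisors were 4.08 for naive NLRP3KO, 3.05 for naive WT, 0.562 for day 3 NLRP3KO, 0.496 for day 3 WT, 0.617 for day 6 NLRP3KO and 0.548 for day 6 WT.

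Promoter windows from RefSeq (GRCm38.p6) are shown for members with many fragments in the Th2 libraries, highest first and none from the chromosome of Atp5a1, since the members are parts of shared assemblies. Each runs 5′ to 3′ over 300 bases around the annotated start, and capitals mark the letters of the NRF1 core (GCGCATGC or GCATGCGC) and the ETS core (CCGGAAG or CTTCCGG). NRF1 and the ETS factor GABP are known regulators of respiratory chain genes.
Atp5b (chr10:128083057-128083356, plus strand): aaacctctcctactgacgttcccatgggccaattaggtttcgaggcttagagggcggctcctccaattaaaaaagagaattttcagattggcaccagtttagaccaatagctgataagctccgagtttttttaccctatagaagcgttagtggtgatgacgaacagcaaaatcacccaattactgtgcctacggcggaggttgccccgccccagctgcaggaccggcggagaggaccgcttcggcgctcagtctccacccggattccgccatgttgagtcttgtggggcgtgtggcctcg
Atp5d (chr10:80142025-80142324, plus strand): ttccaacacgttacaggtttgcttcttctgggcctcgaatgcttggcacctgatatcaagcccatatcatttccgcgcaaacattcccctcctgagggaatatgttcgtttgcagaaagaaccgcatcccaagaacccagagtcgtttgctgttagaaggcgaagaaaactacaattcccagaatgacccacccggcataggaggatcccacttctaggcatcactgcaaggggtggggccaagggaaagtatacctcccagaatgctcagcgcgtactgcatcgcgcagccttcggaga
Uqcrc1 (chr9:108936398-108936697, plus strand): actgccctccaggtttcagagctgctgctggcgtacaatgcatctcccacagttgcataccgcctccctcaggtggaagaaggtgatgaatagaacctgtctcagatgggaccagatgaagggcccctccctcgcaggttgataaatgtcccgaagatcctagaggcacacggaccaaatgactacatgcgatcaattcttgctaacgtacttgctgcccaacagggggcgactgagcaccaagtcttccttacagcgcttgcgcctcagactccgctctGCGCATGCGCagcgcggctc
Cox8a (chr19:7217567-7217866, minus strand): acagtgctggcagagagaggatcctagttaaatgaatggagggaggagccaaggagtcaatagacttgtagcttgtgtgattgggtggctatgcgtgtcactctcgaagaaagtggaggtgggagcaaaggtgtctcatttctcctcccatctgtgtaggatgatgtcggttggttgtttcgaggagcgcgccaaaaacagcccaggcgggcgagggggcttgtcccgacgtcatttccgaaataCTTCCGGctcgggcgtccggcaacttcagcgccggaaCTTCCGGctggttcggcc
Uqcrc1 carried the NRF1 letters on both strands in one overlapping run, Cox8a carried the ETS letters at 2 places, and Atp5b and Atp5d carried neither in these windows. Over the 73 windows of the 68 members with an entry, the NRF1 letters stood in 11 windows (15.1%), against 2.71% of all 32851 promoter windows. The ETS letters stood in 16 of the 73 windows (21.9%), against 8.86% of all windows. Both stood in 5 member windows, and the NRF1 and ETS letters overlapped each other in 0 of all windows. These matches describe letters in a window, not binding.

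Depth differed widely between the stages. Fragments on genes, estimated from the FPKM and their confidence bounds, came to 1461746 in naive NLRP3KO and 1685061 in naive WT, 24195 in day 3 NLRP3KO and 27382 in day 3 WT, and 5123 in day 6 NLRP3KO and 28897 in day 6 WT. Members held 9653 of these fragments in naive NLRP3KO and 14937 in naive WT, but 153 in day 3 NLRP3KO, 223 in day 3 WT, 38 in day 6 NLRP3KO and 227 in day 6 WT. The number of members above 0 followed, with 80 in naive NLRP3KO, 81 in naive WT, 49 in day 3 NLRP3KO, 58 in day 3 WT, 24 in day 6 NLRP3KO and 55 in day 6 WT. For a median member, 3 fragments were worth an FPKM of 1.64 in naive NLRP3KO, 1.12 in naive WT, 10.8 in day 3 NLRP3KO, 8.47 in day 3 WT, 39.4 in day 6 NLRP3KO and 9.10 in day 6 WT, so a member listed at 0 in a Th2 library may lie anywhere below about that level. Nlrp3 was listed at 0 in naive NLRP3KO and at 0.0569 FPKM in naive WT, and at 0 in all 4 Th2 libraries, which is too low to check the genotype labels. All 9 CD4 T cell markers looked up were above 0 in both naive libraries. The ribosomal RNA gene Rn45s, left out of fragments on genes, stood at 7819 FPKM in naive NLRP3KO and 10783 FPKM in naive WT. In the Th2 libraries it stood at 53218 FPKM (day 6 WT) to 67266 FPKM (day 6 NLRP3KO). The part of ribosomal RNA in the low fragment numbers on genes was not tested.

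Naive T cells expressed nearly the whole nuclear set. Median FPKM over the 88 members was 35.2 in naive NLRP3KO and 38.4 in naive WT, and 76 members in each library reached an FPKM of 5. Only 7 members were listed at 0 in all 6 libraries. Of these, 6 were the isoforms Cox4i2, Cox7a1, Cox7b2, Cox8b, Cox8c and Ndufa4l2. The seventh, Ndufs5, is a regular complex I subunit, and it was listed at 0 although the tables gave it an upper bound of 1.95 FPKM in naive NLRP3KO and 1.31 FPKM in naive WT. The highest level belonged to Atp5e, the epsilon subunit in the central stalk of ATP synthase, at 318 FPKM in naive NLRP3KO and 459 FPKM in naive WT. Uqcrh, the hinge protein of complex III, stood at 199 FPKM in naive NLRP3KO and 349 FPKM in naive WT. Ndufa3, a small accessory subunit of complex I, stood at 217 FPKM in naive NLRP3KO and 321 FPKM in naive WT. At the low end, Ndufab1, the acyl carrier protein of complex I, stood at 2.59 FPKM in naive NLRP3KO and 4.56 FPKM in naive WT. Cycs stood at 6.55 FPKM in naive NLRP3KO and 10.5 FPKM in naive WT.

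Levels at the top are uncertain for short transcripts. In naive NLRP3KO the FPKM lay above its own upper confidence bound in 18 members (22% of those with a bound), against 1.38% of all entries, and in naive WT in 29 members (34.9%), against 2.01%. For Atp5e the bounds were 161 to 232 FPKM in naive NLRP3KO and 245 to 312 FPKM in naive WT. The gap was present in both libraries for 18 members and in WT alone for 11, so it does not cancel in every difference of levels. Cox6c, for one, stood at 47.2 FPKM under an upper bound of 48.5 in NLRP3KO, and at 109 FPKM over an upper bound of 91.3 in WT.

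In naive cells most subunits were lower in the NLRP3KO library than in the WT library, and short transcripts lay lowest. Of the 80 members kept (those that reached an FPKM of 1 in either library), 67 were lower and 13 higher in NLRP3KO, with a median log2 difference of -0.63, against 0.01 over all 9985 genes kept. At least 2-fold lower were 17 members, against 2.32% of all genes kept, most of which are longer (shares at like length are given with the lengths), and at least 2-fold higher were 0 members, against 0.21%. Confidence bounds after scaling did not overlap for 36 members that were lower and for 0 that were higher, against 8.92% and 6.52% of all genes kept. Counts of these at like length are given with the lengths too. Fragments on members made up 0.660% of fragments on genes in NLRP3KO and 0.886% in WT, a ratio of 0.745 (95% exact interval 0.726 to 0.764). With the middle of the bounds in place of the FPKM, a setting chosen after seeing the data, 15 members were at least 2-fold lower, the median was -0.60 and the ratio 0.757.

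Complex I differed between its core and its accessory subunits. The 7 core subunits, which carry the flavin and the iron-sulfur clusters, had a pooled ratio of 0.919 (0.837 to 1.01), whereas the 30 accessory subunits had 0.607 (0.574 to 0.642). Ndufv1, the core subunit which binds the flavin, stood at 29.1 FPKM in NLRP3KO and 18.7 FPKM in WT, a log2 difference of 0.19 after scaling. The accessory subunit Ndufs6 was the lowest of all members relative to WT, at 7.88 FPKM in NLRP3KO (bounds 1.82 to 14.6) and 37.1 FPKM in WT (26.8 to 47.7), a log2 difference of -2.17. Its gene lies at chr13:73457324-73465930 in mm9, and its bounds do not overlap between the genotypes. Another 5 accessory subunits were at least 2-fold lower with bounds apart. Their log2 differences were -1.49 for Ndufb2, -1.47 for Ndufa12, -1.31 for Ndufb6, -1.25 for Ndufa4 and -1.11 for Ndufa2. Ndufa4 was first described as a complex I subunit and is now known to belong to complex IV. It stood at 107 FPKM in NLRP3KO and 195 FPKM in WT.

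Complex II, which links the citric acid cycle to the chain, was nearly level, with a pooled ratio of 0.952 (0.860 to 1.05). Its catalytic subunit Sdha stood at 42.2 FPKM in NLRP3KO and 34.8 FPKM in WT, a log2 difference of -0.13. The iron-sulfur subunit Sdhb stood at 36.2 FPKM in NLRP3KO and 45.8 FPKM in WT, a log2 difference of -0.70. The membrane anchor Sdhc stood at 37.0 FPKM in NLRP3KO and 19.8 FPKM in WT, and its log2 difference of 0.42 was the highest of the 80 members.

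Complex III had a pooled ratio of 0.693 (0.643 to 0.746), with 1 of its 9 members higher and 8 lower in NLRP3KO. The core protein Uqcrc1 stood at 32.6 FPKM in NLRP3KO and 20.5 FPKM in WT, a log2 difference of 0.22. The other core protein, Uqcrc2, stood at 56.1 FPKM in NLRP3KO and 53.5 FPKM in WT, a log2 difference of -0.33. Lowest relative to WT were Uqcrb, at 18.9 FPKM in NLRP3KO and 39.8 FPKM in WT (a log2 difference of -1.32), and Uqcrh (-1.21). The other members lay between, with -0.75 for Uqcr11, -0.71 for Uqcr10, -0.63 for Uqcrq, -0.26 for Cyc1 and -0.16 for the Rieske protein Uqcrfs1. Uqcr11 had the lowest naive level of the complex, at 15.0 FPKM in NLRP3KO and 21.0 FPKM in WT. In the Th2 libraries it was listed at 0 but for 11.4 FPKM in day 3 WT.

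Complex IV, which hands the electrons to oxygen, had the lowest pooled ratio of the complexes, 0.579 (0.546 to 0.614) and all 13 members kept lower in NLRP3KO. Cox6c stood at 47.2 FPKM in NLRP3KO and 109 FPKM in WT. Cox7a2 stood at 38.9 FPKM in NLRP3KO and 84.8 FPKM in WT. Cox7b stood at 29 FPKM in NLRP3KO and 57 FPKM in WT. These 3 small subunits and Cox6b1, at 158 FPKM in NLRP3KO and 278 FPKM in WT, were the complex IV members at least 2-fold lower. Cox4i1, the main form of the largest nuclear subunit, was closer, at 144 FPKM in NLRP3KO and 173 FPKM in WT. Cox8a stood at 178 FPKM in NLRP3KO and 191 FPKM in WT. Cox7a2l, which helps complexes III and IV join into supercomplexes, stood at 210 FPKM in NLRP3KO and 242 FPKM in WT. Cytochrome c, which carries electrons from complex III to complex IV, had 59 fragments on Cycs in NLRP3KO and 140 in WT, a ratio of 0.489 (0.352 to 0.663).

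ATP synthase split between its catalytic head and its membrane part. The 5 subunits of the F1 head had a pooled ratio of 1.08 (1.02 to 1.14), while the 10 subunits of the Fo part and the stalk had 0.739 (0.679 to 0.803). The catalytic beta subunit Atp5b, whose gene lies at chr10:127520363-127527444 in mm9, stood at 198 FPKM in NLRP3KO (bounds 170 to 201) and 128 FPKM in WT (110 to 130). The alpha subunit Atp5a1 stood at 110 FPKM in NLRP3KO and 68.0 FPKM in WT. The delta subunit Atp5d stood at 88.4 FPKM in NLRP3KO and 54.2 FPKM in WT. After scaling the log2 differences were 0.20 for Atp5b, 0.27 for Atp5a1 and 0.27 for Atp5d, and the shortest F1 member, Atp5e, had -0.94.

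In the membrane part, Atp5k (subunit e) stood at 38.2 FPKM in NLRP3KO and 90.7 FPKM in WT. Atp5h (subunit d of the stalk) stood at 26.1 FPKM in NLRP3KO and 44.8 FPKM in WT. Atp5j2 (subunit f) stood at 94.1 FPKM in NLRP3KO and 150.3 FPKM in WT. All 3 were at least 2-fold lower after scaling. The 3 genes for the c ring, which are known to give the same mature protein, differed from each other. Atp5g1 had 11.9 FPKM in NLRP3KO and 26.0 FPKM in WT, a log2 difference of -1.28. Atp5g2 had 91.9 FPKM in NLRP3KO and 95.9 FPKM in WT, a log2 difference of -0.46. Atp5g3, the highest of the 3 in both libraries, had 179 FPKM in NLRP3KO and 132 FPKM in WT, a log2 difference of 0.01.

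**Figure D1:**
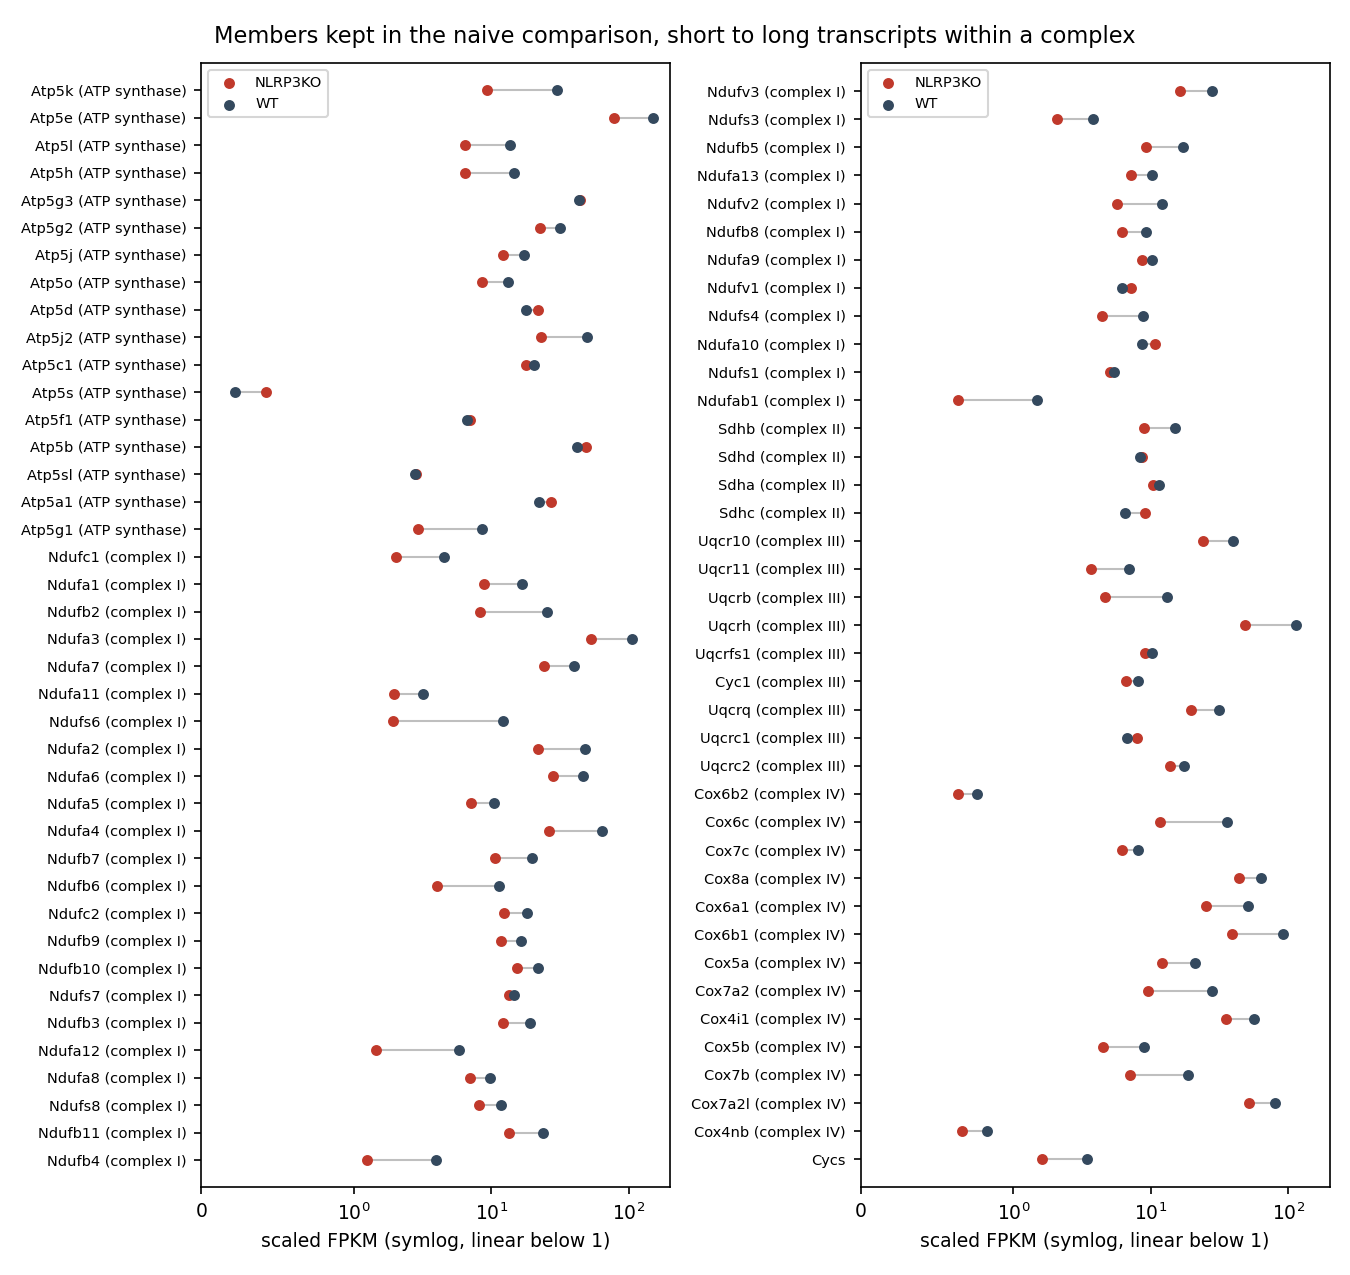
Scaled FPKM (x axis, log scale above 1 and linear below) of 79 of the 80 members kept in naive cells, NLRP3KO in red and WT in blue, sorted within each complex from short to long transcripts. Of those drawn, 67 lie lower in NLRP3KO, and the 12 that lie higher include Atp5b, Atp5a1, Atp5d, Ndufv1, Sdhc and Uqcrc1.

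Transcript length, taken from GENCODE transcripts matched by symbol for all 88 members, ran from 315 to 4942 bases with a median of 769, against a median of 2235 bases over all genes. Across the 80 members kept, Spearman's rho between length and the naive log2 difference was 0.56, and across 9872 genes it was 0.20. These genes share 2 libraries and are not independent, so no p is given. Members under 600 bases had a median log2 difference of -0.91 (22 kept, all 22 lower), members from 600 to 1000 bases -0.67 (25 kept, 23 lower) and members of at least 1000 bases -0.21 (33 kept, 22 lower). All genes kept in these classes had medians of -0.63, -0.40 and 0.03. In each class the median of the members lay below that of all genes. At least 2-fold lower were 31.8% of members under 600 bases, against 28.3% of all genes of that length, 32% of members from 600 to 1000 bases, against 12.3%, and 6.06% of members of at least 1000 bases, against 0.789%. The 2-fold share among the shortest members was thus close to that of all genes of that length. Lower with bounds apart were 15 of 22 members under 600 bases, against 78 of 254 genes of that length. From 600 to 1000 bases these were 11 of 25 members, against 148 of 624 genes. From 1000 bases they were 10 of 33 members, against 660 of 8994 genes. Pooled ratios in the 3 classes were 0.532 (0.501 to 0.564), 0.653 (0.621 to 0.687) and 0.905 (0.874 to 0.937). The shortest transcript among the 13 higher members was that of Atp5g3, at 719 bases. Of the 33 members kept of at least 1000 bases, 2 were at least 2-fold lower. One of these was Atp5g1, at 2656 bases by symbol, an exception among long transcripts by this measure. Its length is a median over the transcripts matched to the symbol, so the form present in these cells may be shorter or longer. Core against accessory and F1 against Fo differ in length too, with medians of 1312 bases for the core and 694 for the accessory subunits of complex I, and of 1451 bases for F1 and 753 for Fo and the stalk, and the part of length in the difference between these layers was not tested. Median lengths were 618 bases for complex IV, 800.5 for complex I, 931 for ATP synthase, 1363 for complex III and 2065.5 for complex II, and Cycs had 3123. The part of length in the order of their pooled ratios was not tested either.

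**Figure D2:**
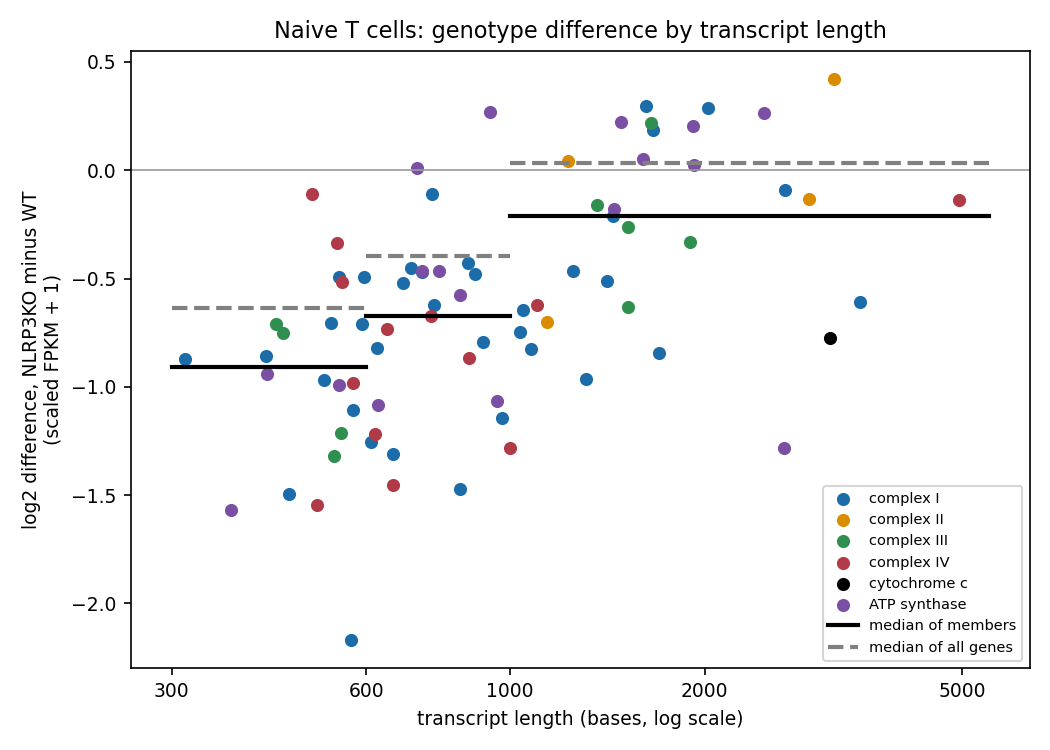
Log2 difference between naive NLRP3KO and naive WT cells (y axis) against transcript length in bases (x axis, log scale) for the 80 members kept, coloured by complex. Black bars are the medians of the members in 3 length classes (-0.91, -0.67 and -0.21) and dashed grey bars those of all genes (-0.63, -0.40 and 0.03).

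Markers of other cells were read as sums of deposited FPKM, unscaled, beside the ratio of their shares of fragments, NLRP3KO over WT. The 5 B cell markers summed to 37.1 FPKM in NLRP3KO and 77.2 FPKM in WT, a share ratio of 0.389 (0.317 to 0.473). The 4 erythroid markers summed to 457 FPKM in NLRP3KO and 181 FPKM in WT, a share ratio of 1.71 (1.47 to 2.00). These lists thus differed between the libraries beyond counting error. The 9 CD4 T cell markers summed to 2091 FPKM in NLRP3KO and 1600 FPKM in WT, which scaling turns to 512 in NLRP3KO and 525 in WT, and their share ratio was 1.09 (1.06 to 1.12). The 2 CD8 markers summed to 15.7 FPKM in NLRP3KO and 16.1 FPKM in WT, a share ratio of 0.846 (0.579 to 1.22). The 5 myeloid markers in the tables summed to 16.7 FPKM in NLRP3KO, where 3 were above 0, and to 13.3 FPKM in WT, a share ratio of 0.942 (0.627 to 1.42). The 3 NK cell markers and the 4 striated muscle markers summed to under 2 FPKM in each naive library. In the Th2 libraries CD8, NK, erythroid and striated muscle markers were all at 0. Depth limits this reading. In naive WT the CD8 markers had 71 and the NK markers 10 of 1685061 fragments on genes, and day 3 WT held 27382 fragments on genes. For CD8 and NK cells the zeros therefore do not show absence. Fewer cells of a type and less RNA per cell cannot be told apart in bulk libraries, and the part of these cells in the subunit difference was not tested.

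Other mitochondrial pathways had medians nearer to that of all genes in naive cells, and their transcripts were longer, with median lengths from 1753 bases (carriers and partners) to 3755 bases (regulators of biogenesis). Members of at least 1000 bases, with a median log2 difference of -0.21 and a pooled ratio of 0.905, are therefore the closer comparison. Against that median, complex I assembly factors (-0.20) and carriers and partners (-0.16) lay close. Other assembly factors (-0.09) lay somewhat higher, and the citric acid cycle and biogenesis lists lay above 0. Pooled ratios of complex I assembly factors (0.809) and other assembly factors (0.885) were below 0.905, and those of the remaining lists were above it. Of the 16 genes of the citric acid cycle and pyruvate dehydrogenase, 0 were at least 2-fold apart, 9 were higher and 7 lower in NLRP3KO, and the pooled ratio was 1.09 (1.03 to 1.14) with a median log2 difference of 0.04. Citrate synthase (Cs) stood at 41.1 FPKM in NLRP3KO and 24.4 FPKM in WT, a log2 difference of 0.30 after scaling. Pdha1, a subunit of pyruvate dehydrogenase, had a log2 difference of 0.08, and Ogdh, a subunit of the oxoglutarate dehydrogenase complex, one of -0.10. The 16 genes ran from -0.89 for Pdhb to 0.40 for Idh3b. Of the 12 regulators of mitochondrial biogenesis kept, 0 were at least 2-fold apart, 9 were higher and 3 lower, with a median of 0.10, and their pooled fragments gave 1.21 (1.11 to 1.31). Gabpa, an ETS factor, stood at 9.64 FPKM in NLRP3KO and 6.09 FPKM in WT, a log2 difference of 0.16. Polg, the mitochondrial DNA polymerase, had a log2 difference of 0.32, and Pprc1, a coactivator, one of 0.06.

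Of the 10 carriers and partners, 2 were higher and 8 lower, with a median of -0.16, and their pooled fragments gave a ratio of 1.02 (0.953 to 1.10). The 2 higher genes were the phosphate carrier Slc25a3, at 115 FPKM in NLRP3KO and 79.9 FPKM in WT (a log2 difference of 0.10), and the ADP/ATP carrier Slc25a5, at 155 FPKM in NLRP3KO and 103 FPKM in WT (0.17). The ADP/ATP carrier Slc25a4 stood at 43.5 FPKM in NLRP3KO and 35.4 FPKM in WT, a log2 difference of -0.11 after scaling. Lowest of the 10 was Atpif1, whose transcript has 539 bases, with a log2 difference of -0.98. Of the 8 complex I assembly factors kept, 2 were higher and 6 lower, with a median of -0.20, and the ratio over their pooled fragments was 0.809 (0.680 to 0.955). Among them Foxred1 had a log2 difference of 0.08 and Acad9 one of -0.10, while Nubpl was under an FPKM of 1 in both naive libraries. Tmem126b, at 1.41 FPKM in NLRP3KO and 7.65 FPKM in WT, was at least 2-fold lower (-1.38). Of the 18 other assembly factors 6 were higher and 12 lower, with a median of -0.09, and the pooled fragments gave 0.885 (0.802 to 0.977). The copper chaperone Cox17, whose transcript has 444 bases, stood at 50.1 FPKM in NLRP3KO and 80.7 FPKM in WT, a log2 difference of -1.05. Atpaf2, a chaperone of the F1 head with 1813 bases, stood at 13.4 FPKM in NLRP3KO and 5.71 FPKM in WT, a log2 difference of 0.57. Sdhaf1, an assembly factor of complex II, had a log2 difference of -0.11. Sco2, at 7.55 FPKM in NLRP3KO and 0 in WT, was the only gene of these 18 at least 2-fold higher (1.51).

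In Th2 cells most subunits had 0 to 3 fragments a library (78 members in day 3 NLRP3KO and 73 in day 3 WT), so they were pooled. At day 3 members took 0.633% of fragments on genes in NLRP3KO and 0.813% in WT, a ratio of 0.779 (0.628 to 0.958). At day 6 they took 0.744% in NLRP3KO and 0.787% in WT, a ratio of 0.945 (0.651 to 1.34). The day 6 ratio over the day 3 ratio was 1.21 (0.814 to 1.81) and the day 3 ratio over the naive ratio 1.05 (0.849 to 1.29). Neither interval leaves out 1, and they are too wide to show that the stages were alike.

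By complex, the day 3 ratios were 0.804 (0.501 to 1.27) for complex I, 0.477 (0.180 to 1.14) for complex II, 1.08 (0.565 to 2.06) for complex III, 0.689 (0.402 to 1.16) for complex IV and 0.792 (0.563 to 1.09) for ATP synthase. The day 6 ratios were 1.17 (0.495 to 2.39) for complex I, 2.18 (0.606 to 6.49) for complex II, 0.951 (0.177 to 3.22) for complex III, 1.03 (0.382 to 2.29) for complex IV and 0.700 (0.370 to 1.22) for ATP synthase. All 10 intervals hold 1. In the length classes, from short to long, the day 3 ratios were 0.823 (0.484 to 1.39), 1.02 (0.648 to 1.62) and 0.693 (0.521 to 0.905), and Spearman's rho between length and the log2 difference was -0.09 over 65 members kept.

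**Figure D3:**
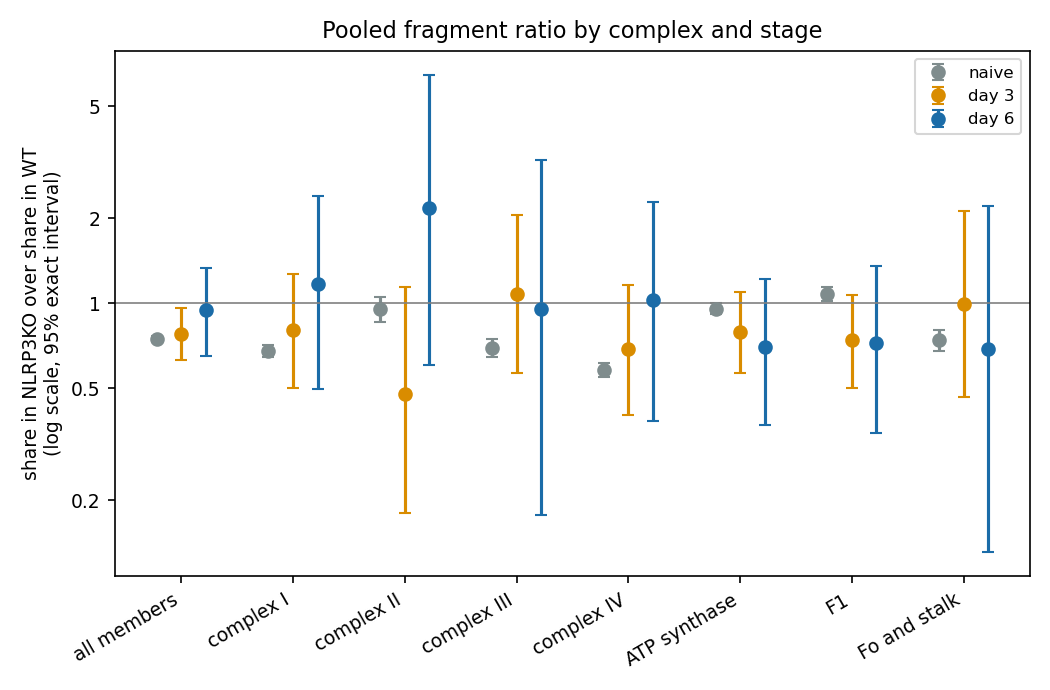
Share of fragments in NLRP3KO over the share in WT (y axis, log scale) for all members, for each complex and for the F1 and Fo parts of ATP synthase, in naive cells and at days 3 and 6. Bars are 95% exact intervals of counting error. Those of naive cells are narrow, and lie below 1 for all members, complexes I, III and IV and the Fo part, and above 1 for F1. At day 3 the interval of all members lies below 1, and those of day 6 hold 1 throughout.

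Atp5b had the most fragments of all members in the Th2 libraries. At day 3 it stood at 26.7 FPKM in NLRP3KO and 37.2 FPKM in WT, from 22 fragments in NLRP3KO and 39 in WT, a counting ratio of 0.64 (0.36 to 1.10). At day 6 it stood at 22.3 FPKM in NLRP3KO and 45.0 FPKM in WT, from 5 fragments in NLRP3KO and 44 in WT. Atp5a1, its partner in the catalytic ring, stood at 19.8 FPKM in NLRP3KO and 25.7 FPKM in WT at day 3, and at 13.5 FPKM in NLRP3KO and 27.9 FPKM in WT at day 6. Atp5d stood at 18.7 FPKM in NLRP3KO and 16.9 FPKM in WT at day 3, and at 29.5 FPKM in NLRP3KO and 20.2 FPKM in WT at day 6, from 3 to 9 fragments a library. After scaling its log2 difference was -0.03 at day 3 and 0.36 at day 6.

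Outside ATP synthase the best covered members were Uqcrc1, Cox8a, Cox7a2l, Cox4i1 and Sdha. At day 3 Uqcrc1 stood at 13.9 FPKM in NLRP3KO and 11.0 FPKM in WT, from 10 fragments in each. At day 3 Cox8a stood at 36.8 FPKM in NLRP3KO and 41.5 FPKM in WT, and at day 6 at 38.8 FPKM in NLRP3KO and 22 FPKM in WT. Sdha stood at 2.33 FPKM in NLRP3KO and 4.88 FPKM in WT at day 3, and at 8.53 FPKM in NLRP3KO and 4.58 FPKM in WT at day 6. Cox8a and Sdha thus lay below WT at day 3 and above it at day 6, each on 2 to 10 fragments a library. Cox7a2l stood at 13.5 FPKM in NLRP3KO and 16.0 FPKM in WT at day 3, and at 8.27 FPKM in NLRP3KO and 11.4 FPKM in WT at day 6. Cox4i1 stood at 15.8 FPKM in NLRP3KO and 18.6 FPKM in WT at day 3, and at 14.5 FPKM in NLRP3KO and 36.3 FPKM in WT at day 6.

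Complex I and the rest of complexes II and III had fewer fragments still. Ndufb11, the complex I member with the most, stood at 2.98 FPKM in NLRP3KO and 14 FPKM in WT at day 3, and at 21.9 FPKM in NLRP3KO and 7.49 FPKM in WT at day 6. Ndufb9, an accessory subunit, stood at 12.5 FPKM in NLRP3KO and 6.56 FPKM in WT at day 3, and at 15.3 FPKM in NLRP3KO and 6.96 FPKM in WT at day 6, from 1 to 3 fragments a library. Ndufa6 stood at 25.4 FPKM in NLRP3KO and 8.0 FPKM in WT at day 3, and at 0 in NLRP3KO and 12.7 FPKM in WT at day 6. Ndufb11 thus lay below WT and Ndufa6 above it at day 3, with the sides changed at day 6. Uqcrfs1, the Rieske iron-sulfur protein, stood at 3.60 FPKM in NLRP3KO and 1.42 FPKM in WT at day 3, and at 0 in NLRP3KO and 7.58 FPKM in WT at day 6. Uqcrh was at 0 in NLRP3KO at both times, against 12.4 FPKM in WT at day 3 and 21.9 FPKM in WT at day 6. Sdhc was at 0 in NLRP3KO and 8.01 FPKM in WT at day 3, and at 7.47 FPKM in NLRP3KO and 6.85 FPKM in WT at day 6. Ndufs6, the lowest relative to WT in naive cells, stood at 11.7 FPKM in NLRP3KO and 9.20 FPKM in WT at day 3, from 2 fragments in each.

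Only 13 members were above 0 in all 4 Th2 libraries, and 14 were at 0 in all 4, among them Ndufs3, Ndufs4, Ndufa5, Ndufb7, Cox5b and Atp5k, whose naive levels ran from 8.46 FPKM (Ndufs3 in NLRP3KO) to 90.7 FPKM (Atp5k in WT).

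Member by member, many Th2 differences were between a listed level and 0. At day 3, 65 members were kept, 18 at 0 in NLRP3KO and 9 at 0 in WT, and the median log2 difference was -0.35, against 0.11 over all genes kept. Its sign turned to 0.15 for members that reached an FPKM of 5 and to 0.14 for those above 0 in both libraries. At least 2-fold higher were 19 members, against 25.4% of all genes kept, and 26 were at least 2-fold lower, against 27.2%. At day 6, 61 members were kept, 37 of them at 0 in NLRP3KO and 7 at 0 in WT, with a median of -2.78, against -1.52 over all genes kept, and of 0.64 for members above 0 in both libraries. At least 2-fold higher were 12, against 20.9%, and 40 were at least 2-fold lower, against 53.8%. With entries at 0 given the level of 3 fragments as their upper bound, no member had bounds apart at day 3 in either direction (0.957% of all genes kept were higher and 0.731% lower) or at day 6 (0.206% higher and 0.806% lower). Of members above 0 in both libraries, the furthest apart were Ndufb11, Ndufv3, Atp5h and Atp5j2 at day 3, with log2 differences of -2.22, 2.13, -1.73 and 1.65, and Ndufa7, Ndufa4, Ndufb8 and Cox4i1 at day 6, with 1.87, 1.87, 1.81 and -1.46, each resting on 1 to 11 fragments in a library.

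Set against naive cells, the share of fragments on members in day 3 Th2 cells gave a ratio whose interval held 1 in both genotypes. The pooled ratio of day 3 over naive was 0.959 (0.811 to 1.12) in NLRP3KO and 0.918 (0.801 to 1.05) in WT. Taken over fragments on the scaling genes, it was lower, at 0.819 in NLRP3KO and 0.825 in WT. No interval is given for that setting, so whether it would hold 1 there is not shown. In NLRP3KO the ratio was 1.16 (0.894 to 1.49) for ATP synthase, 1.25 (0.921 to 1.67) for F1 and 0.768 (0.528 to 1.07) for complex I. In WT, ATP synthase had a ratio of 1.41 (1.14 to 1.74), its F1 part 1.82 (1.44 to 2.31) and complex I 0.646 (0.474 to 0.855). The difference between the genotypes is the day 3 NLRP3KO to WT ratio over the naive one, and its interval held 1 for ATP synthase, at 0.827 (0.599 to 1.14), and for complex I, at 1.19 (0.765 to 1.85). For F1 it was 0.687 (0.476 to 0.993), which leaves out 1 narrowly. By length, members under 600 bases had a ratio of 1.00 (0.659 to 1.47) in NLRP3KO and 0.648 (0.455 to 0.893) in WT, and those of at least 1000 bases 0.941 (0.75 to 1.16) in NLRP3KO and 1.23 (1.04 to 1.45) in WT. Between the genotypes these changes differed by 1.55 (0.938 to 2.55) under 600 bases and by 0.765 (0.585 to 1.00) from 1000 bases, and both intervals hold 1. Members from 600 to 1000 bases had a ratio of 0.971 (0.689 to 1.33) in NLRP3KO and 0.619 (0.447 to 0.835) in WT. In this class the changes differed by 1.57 (1.01 to 2.43), which leaves out 1 narrowly. Over all members kept, median log2 differences were -0.91 in NLRP3KO and -1.21 in WT, against -0.53 in NLRP3KO and -0.52 in WT over all genes kept. At least 2-fold higher were 7 members in NLRP3KO and 8 in WT, against 10.8% and 9.99% of all genes kept, and at least 2-fold lower were 38 and 44 members, against 32.1% and 31.3%.

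Between day 6 and day 3 the pooled ratio was 1.17 (0.800 to 1.68) in NLRP3KO and 0.968 (0.798 to 1.17) in WT. In NLRP3KO 12 members were at least 2-fold higher at day 6 and 29 lower, against 21% and 51.8% of all genes kept. In WT 17 were higher and 20 lower, against 24.1% and 20.2%. Median log2 differences were -2.33 in NLRP3KO and -0.05 in WT, against -1.31 in NLRP3KO and -0.03 in WT over all genes kept. The pooled NLRP3KO to WT ratios of the other pathways at day 3 were 0.716 (0.441 to 1.15) for the citric acid cycle and pyruvate dehydrogenase, 0.657 (0.385 to 1.10) for carriers and partners and 0.712 (0.381 to 1.32) for regulators of biogenesis, and all 3 intervals hold 1. The comparisons at day 3 share a library with those at day 6 and with those against naive cells.

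**Figure D4:**
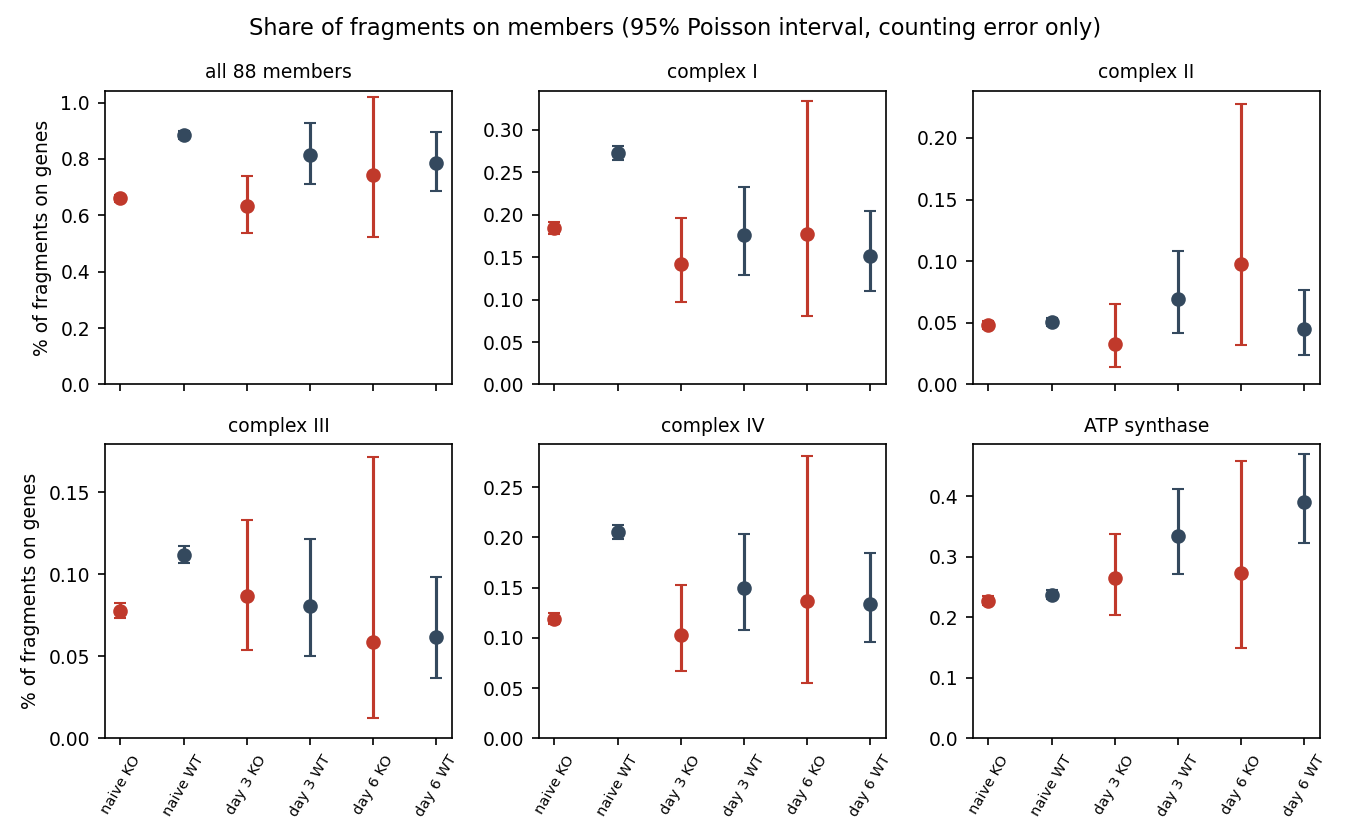
Percent of fragments on genes that fall on all 88 members and on each complex, in naive, day 3 and day 6 libraries, NLRP3KO in red and WT in blue, with 95% Poisson intervals of counting error. The total runs from 0.633% to 0.886% over the 6 libraries, and the intervals are widest for the day 6 NLRP3KO library, which has 38 fragments on members.

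Other paralogues gave 1 dominant form each in naive cells. Cox4i1, given above, stood beside Cox4i2, a form known from lung, which was listed at 0 in all 6 libraries. Cox6a1 stood at 103 FPKM in naive NLRP3KO and 155 FPKM in naive WT, and the muscle form Cox6a2 at 0 in NLRP3KO and 0.906 FPKM in WT. The testis form Cox6b2 stood at 2.60 FPKM in NLRP3KO and 2.33 FPKM in WT, far under Cox6b1. Cox7a1, the muscle form beside Cox7a2 and Cox7a2l, was listed at 0, as were Cox8b and Cox8c beside Cox8a and Ndufa4l2 beside Ndufa4. Several of these genes have close copies in the genome, and how the deposited values shared reads among copies is not given here.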

How the data were processed

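For each library the deposited table lists genes with an FPKM and 2 confidence bounds, per the file headers. Per the submitters' processing notes, TopHat and Cufflinks were used on mm9, with tool versions and annotation not given here. Library fragments were about 300 bp, after 12 PCR cycles on RNA of 300000 cells, per the labels' protocols. Of 23700 entries, 285 with another status were left out. Deposited starts count from 0 and are printed counted from 1, because 8786 entries have an end minus start equal to the length of the RefSeq gene. Fragment numbers were estimated from FPKM and bounds, from steps of whole fragments and the width of the bounds. The bounds stood in a ratio of whole numbers for 87.3% to 93.1% of Th2 entries but 53.0% to 55.5% of naive entries, so naive numbers are less certain than their intervals show, and 96.4% of Th2 values between 0.3 and 10 fragments fell within 0.1 of a whole number. The method was run on simulated data, and the outcome is not given here. Fragments on genes leave out small RNAs and gene models of up to 300 bases (739 entries). Counting intervals are exact conditional or Poisson (95%), and log-normal for ratios of ratios, with PCR copies not told apart. No p-values were computed. Named members were, per complex, the 3 with the most Th2 fragments and the highest and lowest in naive cells, paralogues, and members at least 2-fold apart with bounds apart (else the 4 furthest apart). 1 member is counted in the sets but not reported here by itself. Ndufv1, Ndufab1, Ndufs5, Uqcrc2 and the other members the rule does not name were named after their values were seen. So were Pdhb, Idh3b, Atpif1, Tmem126b and Sco2 from the other pathways. The members and lists were chosen with earlier results of these data known. Python 3.11.15, NumPy 2.4.6, SciPy 1.17.1 and matplotlib 3.10.9 were used.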

Additional observations from a re-analysis of the deposited data

Results flagged for a closer look

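The pooled NLRP3KO to WT ratio of complex II differed between day 6 and day 3 by a factor of 4.57 (95% counting interval 1.22 to 17.1). It was the 1 interval of 19 ratios of ratios, over all members and each complex, that left out 1, and intervals at this level leave out 1 by chance in about 1 of 20. The 19 do not count subsets, some of which left out 1 too. For day 3 over naive these were F1, at 0.687 (0.476 to 0.993), and members from 600 to 1000 bases, at 1.57 (1.01 to 2.43). For day 6 over naive they were accessory complex I, at 2.16 (1.003 to 4.66), and members from 600 to 1000 bases, at 2.00 (1.09 to 3.66). The complex II factor rests on 8 fragments in NLRP3KO and 19 in WT at day 3, and on 5 in NLRP3KO and 13 in WT at day 6. Sdha had 3 fragments in NLRP3KO and 8 in WT at day 3, and 3 in NLRP3KO and 7 in WT at day 6. Sdhc had 0 in NLRP3KO and 5 in WT at day 3, and 1 in NLRP3KO and 4 in WT at day 6. The difference was not tested over samples, since each group is 1 library.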

How the results depend on the processing

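No paired analysis was possible because each group is 1 library with no replicate numbers to pair; the stages are conditions and were not used as pairs. Of 96 alternatives, 55 moved a value by less than its counting error or, for counts, by less than 1.5 times, 33 moved it further and 8 turned its sign. Naive cells: the median log2 difference of members, -0.63, was -0.25 as deposited (where the median of all genes was 0.37, so members lay 0.62 below it), -0.55 scaled by fragments on genes, -0.67 with the ratio of the 2 libraries, -0.68 with a pseudocount of 0.1 and -0.50 for transcripts of at least 600 bases. The 17 members at least 2-fold lower were 10 as deposited. The pooled ratio, 0.745, was 0.776 over the scaling genes, 0.711 without the top member and 0.811 from 600 bases. The correlation of the naive difference with length, 0.56, was 0.59 with lengths read from the FPKM of 1 fragment, an alternative chosen after seeing the data, as was the middle of the bounds. Day 3: the median, -0.35, was -0.028 with no filter, -0.028 for subunits in common use, 0.15 at an FPKM of 5 and 0.14 for members above 0 in both libraries; the count 2-fold lower, 26, was 12 at an FPKM of 5 and 8 above 0 in both, and the count higher, 19, was 10 above 0 in both. Day 6: the median, -2.78, was -2.07 as deposited, -2.20 with the ratio of the 2 libraries, -5.90 with a pseudocount of 0.1, -3.37 at an FPKM of 5, -2.06 from 600 bases and 0.64 above 0 in both; the count lower, 40, was 26 at an FPKM of 5 and 3 above 0 in both, and the count higher, 12, was 5. Day 3 against naive: in WT the median, -1.21, was -3.61 as deposited, -0.86 by fragments, -1.44 by the 2 libraries and -0.44 above 0 in both, and in NLRP3KO, -0.91, it was -3.21, -0.62 by fragments and -0.032 above 0 in both. Day 6 against day 3: in WT the median, -0.05, was 0.078 as deposited, and in NLRP3KO, -2.33, it was -1.70 as deposited and 0.51 above 0 in both. The correlation of level with length, from -0.21 to 0.11 over 88 members, was -0.21 in naive NLRP3KO, -0.42 in naive WT, -0.38 in day 3 NLRP3KO, -0.33 in day 3 WT, -0.72 in day 6 NLRP3KO and -0.49 in day 6 WT among members above 0. Leaving out members at 0 leaves fewer members, and leaving out the scaling shifts differences by the divisors, both by construction. In day 6 NLRP3KO, 23 of the 24 members above 0 had 1 to 3 fragments, and FPKM sets fragments relative to transcript length. A negative correlation of level with length is thus in part built into the measure there. The cause of the other changes was not tested. Depth limits the Th2 libraries: a member at 0 can lie below about 3 fragments.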
